A study of Camelina sativa with 12 samples.

Results

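The 100 genes described here had their highest transcript levels in shoots of Camelina sativa grown in soil treated with Pseudomonas migulae 8R6, among 4 groups of plants under salt. They were chosen by their measured levels in CPM, the count of a gene divided by the total of its library and multiplied by 1000000. A gene had to average at least 2 CPM with P. migulae 8R6, and all 3 of those libraries had to lie above all 9 others. Of the 89418 genes in the table, 44028 met the minimum and 970 (2.20% of the 44028) also met the separation. The 970 were ranked by the log2 ratio of the P. migulae 8R6 mean to the largest of the 3 other group means, with 0.5 CPM added to both, and the first 100 were taken. Their levels with P. migulae 8R6 are therefore a description. No p-value of that difference is given. The number of members that a test across all genes would call is printed beside its background for the main fit. For most alternative fits no background is given, and nothing is read from those counts.

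C. sativa is an oilseed crop of the mustard family with several closely related copies (homeologues) of most genes. All plants were DH55 or transgenic lines made in it, received NaCl at 192 mM (15 dS m-1), and were sampled as whole shoots at 28 days, after 21 days of salt. Elsewhere the paper's methods start the salt at a later plant age than these times imply, so the duration of salt is uncertain. No plants without salt were included. The study asked how ACC deaminase, supplied by bacteria or by a transgene, altered the shoot transcriptome under salt. For the bacterial treatment, the soil of DH55 plants was inoculated with P. migulae 8R6 at sowing and again after 1 week. The 35S::acdS and rolD::acdS lines each carry the acdS gene of Pseudomonas sp. UW4 as a single insert, under the constitutive CaMV 35S promoter or under the rolD promoter. The study describes rolD as root-specific but reports that acdS was also expressed from it in shoots, far below the level under 35S. Each transgene is represented by 1 line, so the transgene and the line cannot be told apart. Both lines and the DH55 control received MgSO4 solution in place of bacteria. Each group had 3 libraries, which the study's methods call biological replicates.

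ACC deaminase, the product of acdS, breaks down 1-aminocyclopropane-1-carboxylate (ACC), the direct precursor of the hormone ethylene. Plants commonly produce ethylene in response to stress, and high levels restrain growth and hasten the loss of chlorophyll. In the study itself, however, shoot ethylene measured under prolonged salt was lower than without salt in all lines. Bacteria such as P. migulae 8R6 live on and in the root, where they take up ACC, and they also affect plants in ways that do not involve ACC. Leaf growth depends on expansins, proteins that loosen the cell wall, and light capture depends on chlorophyll-binding proteins of the photosystems.

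Library totals lay between 15392642 and 23118510 counts with P. migulae 8R6 and between 10520627 and 23587748 counts in the other 9 libraries. The median log2 fold change of all 56932 genes tested was within 0.01 of 0 in each of the 6 contrasts between groups. Of the 4 photosynthesis genes in the study's annotation, which mark green tissue, photosystem I subunit D-1 (Csa08g050560) had at least 27.1 CPM in every library. The lowest values of the others were 6.93 CPM (Csa06g036870), 2.88 CPM (Csa14g037480) and 0.150 CPM (Csa01g001010). Csa08g050560 is itself a member, so it shows that green tissue was present and does not compare its amount between groups. No marker of another tissue was paired with an identifier, so the presence of other tissues was not checked. In RNA from whole shoots, fewer cells of a type and less RNA per cell cannot be told apart. CPM is not divided by gene length, so levels are compared between libraries for 1 gene and not between genes.

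The differences that put genes in the module were small. The P. migulae 8R6 mean was 1.57 to 3.14 times the largest other group mean (median 1.75), and 20 of the 100 members exceeded 2-fold. The ratio of the lowest P. migulae 8R6 library to the highest of the 9 others ran from 1.01 to 1.67 (median 1.17). Mean levels with P. migulae 8R6 ran from 2.63 to 1021 CPM (median 15.7). In all, 41 members averaged under 10 CPM, 42 between 10 and 100 CPM, and 17 at 100 CPM or more, against 52.8% of the 44028 genes under 10 CPM and 2.85% at 100 CPM or more. The last member, Csa05g034420, had 7.92, 8.38 and 6.24 CPM with P. migulae 8R6, and its log2 ratio of 0.64 was, to 2 decimals, that of the next gene, Csa09g064670, with 577, 539 and 636 CPM. The threshold of 100 therefore falls within a continuous ranking. The 5 members above it (Csa11g025130, Csa03g025330, Csa18g027140, Csa10g019430 and Csa05g034420) were at 0.64, and the 5 genes below it (Csa09g064670, Csa09g044010, Csa05g021570, Csa00441s070 and Csa04g046880) at 0.63 to 0.64.

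**Figure D1:**
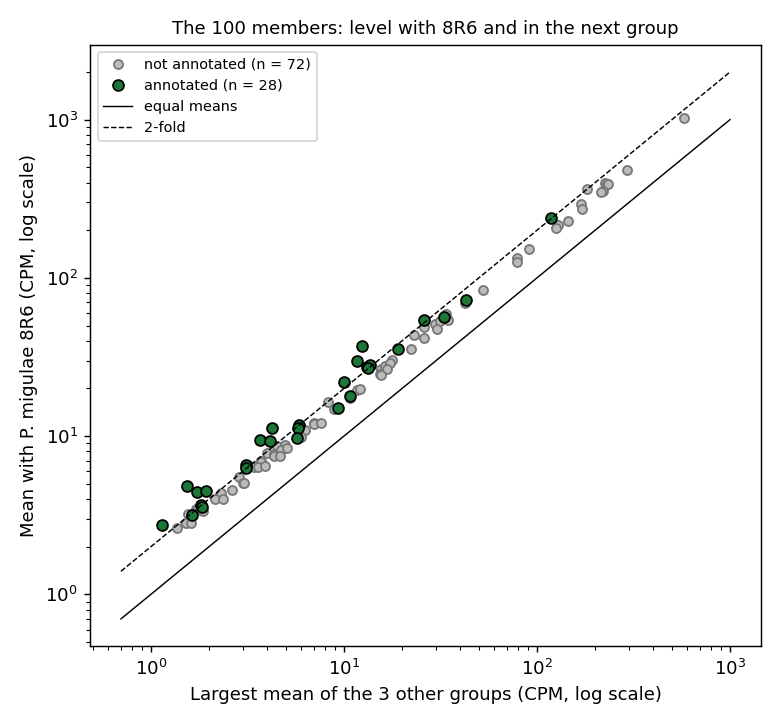
Mean CPM with P. migulae 8R6 (vertical axis) against the largest mean of the 3 other groups (horizontal axis) for the 100 members, both on log scales, with lines at equal means and at 2-fold. All points lie above equality because of how the genes were chosen, and 20 of the 100 lie above the 2-fold line.

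The same count, made for each other group, was 695 genes (1.60%) for the 35S::acdS line, 410 (0.935%) for the rolD::acdS line and 201 (0.456%) for the DH55 control, against 970 (2.20%) with P. migulae 8R6. The gene at rank 100 had a log2 ratio of 0.64 for P. migulae 8R6, 0.54 for 35S::acdS, 0.42 for rolD::acdS and 0.32 for the DH55 control. The largest ratios were closer together, at 1.56 for P. migulae 8R6, 1.51 for 35S::acdS, 1.52 for rolD::acdS and 1.41 for the DH55 control. The 970 depended on single libraries: there were 2843 such genes without P. migulae 8R6 replicate 1, 1610 without replicate 2, 1687 without replicate 3 and 1458 without DH55 control replicate 2. Without P. migulae 8R6 replicate 1, only 34 of the 100 members stayed among the first 100.

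Of the 100 members, 28 carry an annotation in the study's lists of differentially-expressed genes and 72 do not, and the first 13 ranks are all annotated. Names and roles below follow those lists and the A. thaliana genes they give, so each role is one known from A. thaliana. The lists were drawn up on these libraries, so that 27 of the 28 come from the list for P. migulae 8R6 is not independent evidence.

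Of the 4 annotated photosynthesis genes, 3 were members. All 4 come from the study's list for P. migulae 8R6, which was drawn up on these libraries, so this share is not independent evidence. Photosynthesis genes outside the lists were not counted. Csa06g036870, a light harvesting chlorophyll-binding protein of photosystem II (B1B2), had 30.5, 35.2 and 23.1 CPM with P. migulae 8R6, 8.34, 13.9 and 7.30 CPM in the 35S::acdS line, 11.6, 10.4 and 13.1 CPM in the rolD::acdS line and 6.93, 8.66 and 10.3 CPM in the DH55 control. Csa14g037480, chlorophyll a/b binding protein 1 of the same antenna, had 28.8, 21.0 and 15.8 CPM with P. migulae 8R6, 7.29, 11.5 and 2.88 CPM in the 35S::acdS line, 7.09, 12.8 and 9.98 CPM in the rolD::acdS line and 3.47, 3.85 and 11.0 CPM in the DH55 control. The groups without bacteria overlapped one another in Csa14g037480, whereas in Csa06g036870 the rolD::acdS libraries lay above those of the DH55 control and only the 35S::acdS libraries overlapped the others. Csa08g050560, photosystem I subunit D-1, on which ferredoxin docks, had 69.1, 76.4 and 71.8 CPM with P. migulae 8R6, 32.3, 32.0 and 31.1 CPM in the 35S::acdS line, 35.9, 50.6 and 41.7 CPM in the rolD::acdS line and 27.1, 32.0 and 31.6 CPM in the DH55 control. Its rolD::acdS libraries lay between those with P. migulae 8R6 and those of the control without overlapping either. The fourth gene, PsbQ-like 1 (Csa01g001010), of the chloroplast NADH dehydrogenase-like complex, was not a member because 1 other library reached its lowest P. migulae 8R6 library. It had 1.43, 3.25 and 2.86 CPM with P. migulae 8R6 against 0.733, 1.07 and 0.594 CPM in the DH55 control.

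Expansins supplied 4 members, of which Csa11g015640 and Csa12g022330 are copies of expansin B3. Csa11g015640 had 2.55, 6.11 and 5.90 CPM with P. migulae 8R6, 0.526, 1.09 and 0.991 CPM in the 35S::acdS line, 1.89, 1.02 and 1.62 CPM in the rolD::acdS line and 1.00, 2.15 and 1.48 CPM in the DH55 control. Csa12g022330 had 4.41, 12.3 and 11.6 CPM with P. migulae 8R6, 2.03, 3.22 and 2.16 CPM in the 35S::acdS line, 4.34, 2.33 and 3.61 CPM in the rolD::acdS line and 2.93, 4.23 and 3.82 CPM in the DH55 control. In both copies P. migulae 8R6 replicate 1 lay far below replicates 2 and 3, at 1.19 and 1.02 times the highest other library. Csa04g053820, expansin A4, had 5.06, 11.8 and 11.0 CPM with P. migulae 8R6, 3.98, 2.96 and 4.24 CPM in the 35S::acdS line, 4.56, 4.19 and 2.95 CPM in the rolD::acdS line and 3.07, 4.80 and 4.49 CPM in the DH55 control. Csa04g054980, expansin A8, had 20.8, 25.7 and 36.0 CPM with P. migulae 8R6, 5.33, 11.2 and 16.9 CPM in the 35S::acdS line, 15.1, 10.6 and 13.7 CPM in the rolD::acdS line and 8.06, 18.8 and 11.7 CPM in the DH55 control. In expansin A4 and expansin A8 the 3 groups without bacteria overlapped one another throughout. The other expansin B3 copy, Csa10g014410, had 3.07, 9.10 and 7.85 CPM with P. migulae 8R6 against 2.07, 2.97 and 2.04 CPM in the DH55 control, and was not a member because 2 of the 9 other libraries reached its replicate 1. The remaining 2 annotated genes of the family, expansin-like A2 (Csa10g001200) and expansin-like A1 (Csa11g001310), which come from the list for the rolD::acdS line, had means of 2.36 and 1.56 CPM with P. migulae 8R6 against 4.18 and 2.53 CPM in the DH55 control. Reads of near-identical copies can be shared between them, so the split among the expansin B3 copies is uncertain.

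**Figure D2:**
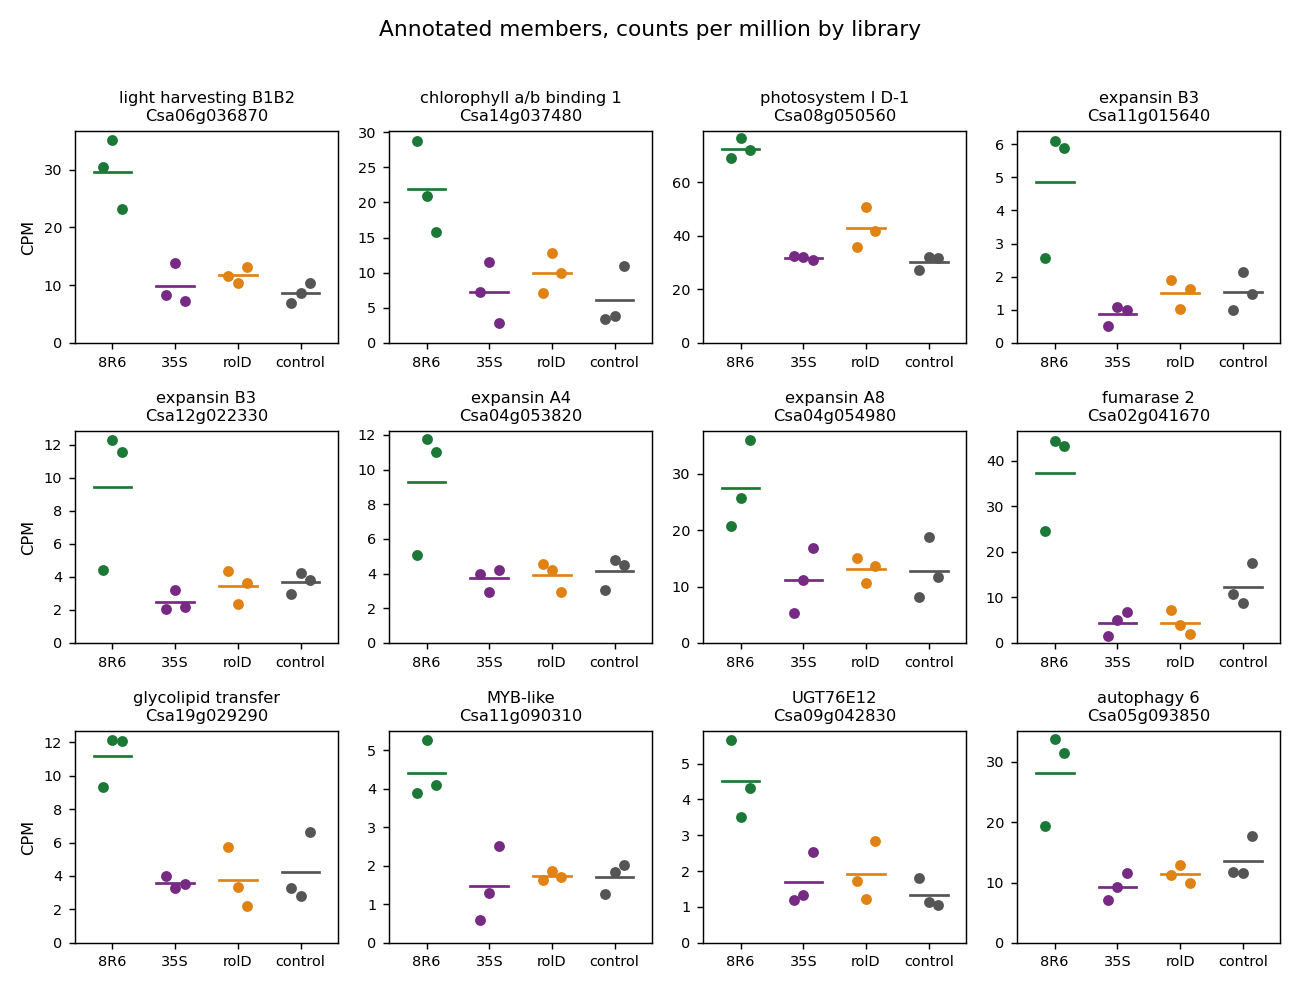
CPM in each of the 12 libraries (points) and group means (bars) for 12 annotated members, with P. migulae 8R6 at the left of each panel. In both expansin B3 copies and in expansin A4 the first P. migulae 8R6 library is far below the other 2, while photosystem I subunit D-1 is tightly grouped at 69.1 to 76.4 CPM.

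Metabolic enzymes and carriers formed a further set. Fumarase 2 (Csa02g041670), which in A. thaliana makes fumarate in the cytosol, stood first in the ranking, with 24.6, 44.2 and 43.2 CPM with P. migulae 8R6, 1.43, 4.96 and 6.76 CPM in the 35S::acdS line, 7.22, 3.91 and 2.00 CPM in the rolD::acdS line and 10.7, 8.78 and 17.6 CPM in the DH55 control. Both transgenic lines lay entirely below the control, the reverse of the position with P. migulae 8R6. Csa19g029290, a glycolipid transfer protein, a class that moves glycolipids between membranes, had 9.30, 12.2 and 12.1 CPM with P. migulae 8R6, 3.98, 3.31 and 3.51 CPM in the 35S::acdS line, 5.76, 3.35 and 2.19 CPM in the rolD::acdS line and 3.27, 2.78 and 6.66 CPM in the DH55 control. Csa09g042830, the UDP-glucosyl transferase UGT76E12, of a family that attaches glucose to small molecules, had 5.67, 3.51 and 4.33 CPM with P. migulae 8R6, 1.20, 1.35 and 2.52 CPM in the 35S::acdS line, 1.72, 1.21 and 2.85 CPM in the rolD::acdS line and 1.80, 1.14 and 1.06 CPM in the DH55 control. In Csa19g029290 and Csa09g042830 the 3 groups without bacteria overlapped. Oligopeptide transporter 5 (Csa11g017670) averaged 3.18 ± 0.349 CPM with P. migulae 8R6, 0.901 ± 0.167 CPM in the 35S::acdS line, 1.63 ± 0.338 CPM in the rolD::acdS line and 1.35 ± 0.372 CPM in the DH55 control (SD, n = 3 each). It was the only member among the 58 transport genes of the lists that were tested. A phosphorylase superfamily gene (Csa11g020380) averaged 11.7 ± 1.52 CPM with P. migulae 8R6 against 5.88 ± 0.660 CPM in the DH55 control, and a Rossmann-fold dehydrogenase (Csa11g102410) 6.33 ± 0.808 CPM against 3.11 ± 0.814 CPM (SD, n = 3 each).

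A pair of homeologues annotated as HXXXD-type acyltransferases, paired with A. thaliana AT4G13840 and likened in the lists to ECERIFERUM 26, which acts in the elongation of wax precursors, were both members. Csa10g032940 had 44.3, 61.8 and 64.8 CPM with P. migulae 8R6, 19.7, 21.1 and 36.6 CPM in the 35S::acdS line, 30.9, 24.8 and 43.5 CPM in the rolD::acdS line and 25.3, 34.1 and 25.0 CPM in the DH55 control. Csa00382s080 averaged 35.6 ± 4.60 CPM with P. migulae 8R6, 15.8 ± 5.80 CPM in the 35S::acdS line, 19.0 ± 6.17 CPM in the rolD::acdS line and 18.1 ± 1.87 CPM in the DH55 control (SD, n = 3 each). Within each transgenic line, replicate 3 was the highest library for both copies.

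Among regulators, Csa11g090310, a MYB-like transcription factor, was the only member of the 125 transcription factor genes of the lists that were tested. It had 3.89, 5.26 and 4.09 CPM with P. migulae 8R6, 0.601, 1.30 and 2.52 CPM in the 35S::acdS line, 1.63, 1.86 and 1.71 CPM in the rolD::acdS line and 1.27, 1.83 and 2.04 CPM in the DH55 control. The values of the other groups did not exceed 2.52 CPM. Its homeologue Csa18g029750 averaged 2.94 ± 0.821 CPM with P. migulae 8R6 against 1.07 ± 0.273 CPM in the DH55 control (SD, n = 3 each), and missed the choice through 1 rolD::acdS library. Of the other MYB-related genes, Csa18g024230 passed the separation at rank 184 with 7.98 CPM against 4.0 CPM in the DH55 control, and Csa11g050940 averaged 1.57 CPM with P. migulae 8R6 against 4.18 CPM in the DH55 control. Csa01g002510, in the gibberellin-responsive class, is named GASA 5 in the study, a family of small secreted peptides. It had 2.64, 2.40 and 3.19 CPM with P. migulae 8R6, 0.751, 0.913 and 1.26 CPM in the 35S::acdS line, 1.12, 2.14 and 0.190 CPM in the rolD::acdS line and 0.400, 1.01 and 1.19 CPM in the DH55 control. GASA 6 (Csa07g046090) passed the separation only at rank 451. ROP-interactive CRIB motif-containing protein 2 (Csa03g030590), which binds small signalling GTPases, had 11.4, 18.1 and 15.4 CPM with P. migulae 8R6, 3.08, 5.0 and 4.78 CPM in the 35S::acdS line, 10.7, 4.09 and 10.3 CPM in the rolD::acdS line and 8.80, 10.7 and 8.48 CPM in the DH55 control. It is the 1 annotated member absent from the list for P. migulae 8R6 and was taken from that for the 35S::acdS line. Its 35S::acdS libraries lay below all 3 controls. Its homeologue Csa14g034930 had the same order of group means, 7.73 CPM with P. migulae 8R6, 2.37 CPM in the 35S::acdS line, 4.55 CPM in the rolD::acdS line and 4.75 CPM in the DH55 control, but 3 other libraries reached its lowest P. migulae 8R6 library.

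Autophagy 6 (Csa05g093850), part of the lipid kinase complex that starts autophagosomes, had 19.3, 33.7 and 31.4 CPM with P. migulae 8R6, 7.14, 9.31 and 11.5 CPM in the 35S::acdS line, 11.2, 12.8 and 9.98 CPM in the rolD::acdS line and 11.7, 11.5 and 17.7 CPM in the DH55 control. The chloroplast ribosomal protein L29 gene (Csa11g102440), a part of the large subunit, had 182, 252 and 282 CPM with P. migulae 8R6, 81.0, 82.1 and 91.3 CPM in the 35S::acdS line, 104, 85.9 and 121 CPM in the rolD::acdS line and 88.4, 127 and 138 CPM in the DH55 control. In both genes P. migulae 8R6 replicate 1 was the lowest of its group, and control replicate 3 was the highest of its own. An HNH endonuclease gene (Csa07g023250) averaged 26.9 ± 5.91 CPM with P. migulae 8R6 and 13.3 ± 2.51 CPM in the DH55 control, and Csa03g004180, annotated as responsive to abscisic acid 28, averaged 6.58 ± 1.29 CPM and 3.13 ± 0.764 CPM in the same groups (SD, n = 3 each). The remaining 6 annotated members carry no defined role. They were the putative protein genes Csa04g007650 and Csa04g029350, the nucleic acid-binding Csa14g030860, and Csa01g007160, Csa17g015780 and Csa08g008170, which are listed as unknown. Csa04g007650 was the ninth in rank, with 41.6, 62.4 and 58.7 CPM with P. migulae 8R6, 19.2, 19.7 and 17.6 CPM in the 35S::acdS line, 18.9, 24.8 and 23.3 CPM in the rolD::acdS line and 17.7, 21.5 and 38.5 CPM in the DH55 control. Control replicate 3 alone approached the P. migulae 8R6 libraries. A homeologue of Csa17g015780, Csa14g014490, passed the separation at rank 231.

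No member belonged to the ethylene genes (20 tested), abscisic acid genes (13), stress genes (36), secondary metabolism genes (28) or protein degradation genes (67) of the study's lists. These sets follow the annotation class of each gene. The member Csa03g004180, annotated as responsive to abscisic acid 28, is classed under development and so falls outside them. All 20 ethylene genes and all 13 abscisic acid genes had negative log2 fold changes with P. migulae 8R6 against the DH55 control, with medians of -0.93 and -1.67. None was called, but 0 of all 56932 genes tested were called lower in that contrast, so nothing is read from this. The study's lists were drawn from genes that differed in these libraries, so their direction is not independent evidence. Of the other classes, 33 of 36 stress genes, 57 of 67 protein degradation genes and 17 of 28 secondary metabolism genes were also lower than in the control. Genes lower with P. migulae 8R6 than in the control could not be members. The 72 members without annotation could not be classed, so the absence of these classes is not a result.

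The 17 members that averaged 100 CPM or more were, except for chloroplast ribosomal protein L29, not annotated. The highest was Csa12g084210, with 904, 975 and 1184 CPM with P. migulae 8R6, 441, 522 and 567 CPM in the 35S::acdS line, 603, 388 and 747 CPM in the rolD::acdS line and 541, 646 and 542 CPM in the DH55 control. Csa11g053300 had 365, 374 and 456 CPM with P. migulae 8R6, 171, 199 and 241 CPM in the 35S::acdS line, 232, 149 and 284 CPM in the rolD::acdS line and 203, 274 and 196 CPM in the DH55 control. Csa17g042850 had 510, 459 and 464 CPM with P. migulae 8R6, 254, 252 and 237 CPM in the 35S::acdS line, 242, 138 and 287 CPM in the rolD::acdS line and 271, 350 and 253 CPM in the DH55 control. In all 3 genes rolD::acdS replicate 2 was the lowest of its line, and rolD::acdS replicate 3 and control replicate 2 were the highest of their groups. These 3 unannotated genes were picked as examples after their values were seen.

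That order was shared by most of the 17. The rolD::acdS replicate 2 was the lowest of its line in 15 of the 17 (41.7% of the 1255 genes at 100 CPM or more) and rolD::acdS replicate 3 the highest in 15 (44.5%). Control replicate 2 was the highest of the controls in 14 (50.0%), and P. migulae 8R6 replicate 3 the highest of its group in 13 (46.9%). The mean pairwise correlation of their deviations from group means was 0.54 over 12 libraries, against 0.02 for the 1255 genes. Over all 100 members it was 0.23, against 0.03 for the 44028 genes, and it was 0.65 among the 4 expansins, which include copies that can share reads. All these correlations are computed over the same 12 libraries and are descriptions. Csa17g003730 was an exception among the 17, with 337, 384 and 371 CPM with P. migulae 8R6, 171, 160 and 147 CPM in the 35S::acdS line, 144, 139 and 127 CPM in the rolD::acdS line and 144, 127 and 277 CPM in the DH55 control, where replicate 3 stood far above the others.

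**Figure D3:**
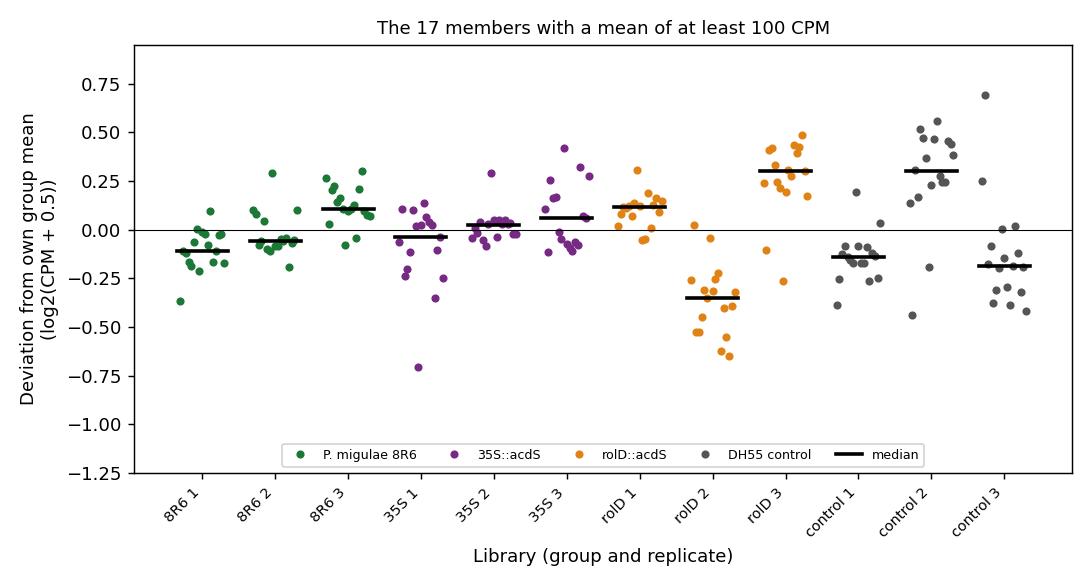
Deviation of log2(CPM + 0.5) from the mean of its own group for the 17 members at 100 CPM or more, by library, with the median of the 17 as a black line. The medians were 0.30 in rolD::acdS replicate 3 and in control replicate 2 and -0.35 in rolD::acdS replicate 2, while those of the P. migulae 8R6 and 35S::acdS libraries stayed between -0.11 and 0.11.

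Within groups the members were more variable than other genes. Their median coefficient of variation was 15.5% for P. migulae 8R6, 23.7% for 35S::acdS, 25.7% for rolD::acdS and 20.1% for the DH55 control, against 12.7% to 13.0% for the 44028 genes. P. migulae 8R6 replicate 1 was the lowest of its group in 66 members, against 33.9% of the 44028 genes. Among the annotated members this held for 20 of 28. The highest of the 9 other libraries was control replicate 2 in 28 members (14.0% of the 44028 genes), rolD::acdS replicate 3 in 22 (9.26%), control replicate 3 in 20 (10.2%), 35S::acdS replicate 3 in 13 (15.2%) and rolD::acdS replicate 1 in 10 (6.13%). Neither 35S::acdS replicate 1 nor control replicate 1 was the highest in any member, against 16.0% and 5.39% of the 44028 genes.

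The position of P. migulae 8R6 was also read in libraries that did not choose the genes. Replicate 1, 2 or 3 of every group was left out in turn, and 100 genes were chosen on the other 8 libraries. The left-out libraries were then compared. The left-out P. migulae 8R6 library was the highest of the 4 in 51 of the 100 genes for replicate 1 (29.1% of all genes with the minimum), in 86 for replicate 2 (23.2%) and in 65 for replicate 3 (23.9%). The log2 ratio to the highest other library had a median of 0.03, 0.36 and 0.28 in the left-out replicates 1, 2 and 3, against -0.14, -0.19 and -0.22 over all genes. In the choosing libraries the ratio of the P. migulae 8R6 mean to the largest other group mean had medians of 0.99, 0.77 and 0.84. The left-out ratio is of single libraries and the choosing ratio is of group means, so their sizes are not compared. In each replicate these counts were above the share of all genes. The genes are not replicates of the treatment, and each left-out comparison rests on 1 library per group. The members varied together within groups (mean pairwise correlation 0.23, against 0.03 for all genes with the minimum). All genes were not matched to the chosen ones for spread, so nothing more is read from these counts. Among all genes that passed the separation on the 8 choosing libraries, before ranking, the share was 51.4% for replicate 1, 56.0% for replicate 2 and 52.2% for replicate 3. For replicate 1 the 100 top-ranked genes were thus no more often highest than all genes that passed. Against the left-out DH55 control alone, P. migulae 8R6 was higher in 63, 87 and 68 of the 100 genes, where 55.0%, 52.0% and 44.7% of all genes were. Of the members, 38, 55 and 46 were among the 100 genes chosen without replicates 1, 2 and 3.

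**Figure D4:**
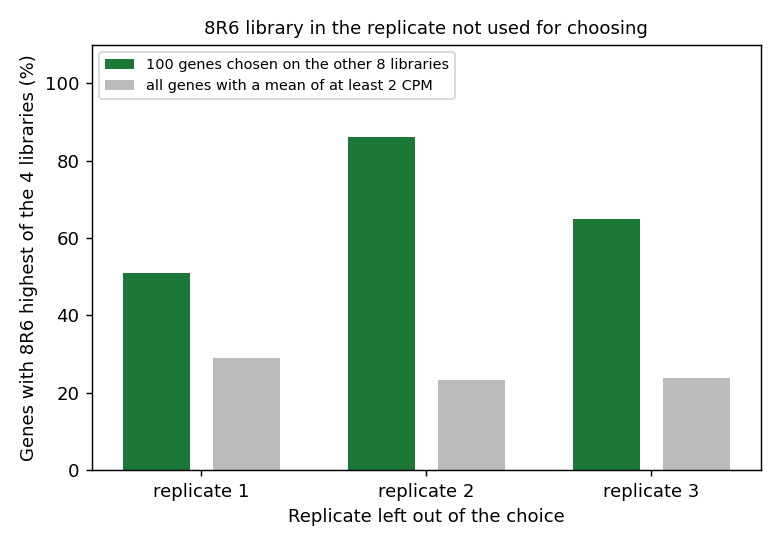
Share of genes in which the P. migulae 8R6 library was the highest of 4 libraries that were not used in choosing, by left-out replicate, for the 100 genes chosen on the other 8 libraries (green) and for all genes with a mean of at least 2 CPM (grey). The shares were 51%, 86% and 65% for the chosen genes and 29.1%, 23.2% and 23.9% for all genes.

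The order of the 3 groups without bacteria was not fixed by the choice. The DH55 control had the largest of the 3 means in 65 members, the rolD::acdS line in 29 and the 35S::acdS line in 6. The 35S::acdS line had the smallest in 63, the rolD::acdS line in 25 and the DH55 control in 12. No share over all genes is given for these orders, so nothing is read from them. Differences among these groups were put to the quasi-likelihood test of edgeR with adjustment over all 56932 genes, and a gene was called where its adjusted p was at most 0.05 and its change above 2-fold. No member was called in any of the 3 contrasts, by edgeR, DESeq2 or limma, and edgeR called 0% of all genes in either direction of each. Over all genes, DESeq2 called 19 in the 35S::acdS line against the DH55 control, 164 in the rolD::acdS line against the DH55 control and 107 in the rolD::acdS line against the 35S::acdS line, and limma called 0, 1 and 1 in the same contrasts.

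In the 35S::acdS line against the DH55 control, the members' median log2 fold change was -0.26, and 17 of 100 were positive at any size, against 50.3% of all genes. At an unadjusted p under 0.05, 15 members were lower and 0 higher, against 4.81% and 2.95% of all genes. The smallest adjusted p of a member was 0.633. Fumarase 2 (Csa02g041670) had a log2 fold change of -1.51 ± 0.48 (SE, edgeR adjusted p = 0.633) and ROP-interactive CRIB motif-containing protein 2 (Csa03g030590) one of -1.10 ± 0.32 (SE, edgeR adjusted p = 0.633).

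In the rolD::acdS line against the DH55 control the median was -0.09, and 32 of 100 members were positive, against 51.3% of all genes. At an unadjusted p under 0.05, 2 members were higher and 2 lower, against 3.29% and 5.07% of all genes. Photosystem I subunit D-1 (Csa08g050560) had the smallest adjusted p, at a log2 fold change of 0.50 ± 0.13 (SE, edgeR adjusted p = 0.347). Fumarase 2 (Csa02g041670) was at -1.42 ± 0.47 (SE, edgeR adjusted p = 0.453).

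In the rolD::acdS line against the 35S::acdS line the median was 0.21, and 75 of 100 members were positive, against 50.4% of all genes. At an unadjusted p under 0.05, 7 members were higher and 0 lower, against 6.78% and 6.08% of all genes, so that count lay near the background. The 7 include oligopeptide transporter 5 (Csa11g017670), at 0.90 ± 0.27 (SE), and Csa03g030590, at 0.98 ± 0.32 (SE), both with an edgeR adjusted p of 0.327. The 3 contrasts share libraries with one another, so their values for the members are not independent.

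**Figure D5:**
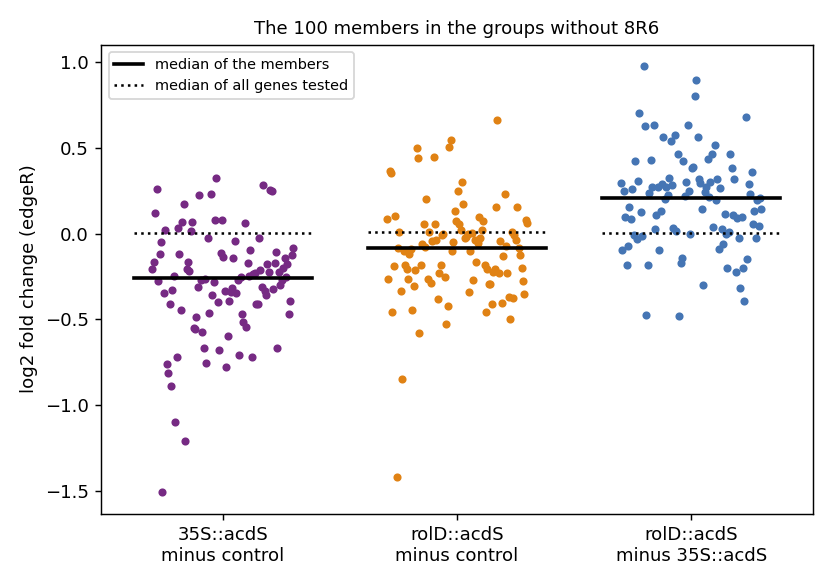
Log2 fold changes (edgeR) of the 100 members in the 3 contrasts that do not involve P. migulae 8R6, 1 point per gene, with the median of the members (solid line) and of all 56932 genes tested (dotted line). The members' medians are -0.26, -0.09 and 0.21 from left to right, and no member was called in any contrast.

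The contrasts with P. migulae 8R6 had median log2 fold changes over the members of 0.90 against the DH55 control, 1.17 against the 35S::acdS line and 0.99 against the rolD::acdS line. The call rule above, applied to these contrasts, took 1 member against the DH55 control, photosystem I subunit D-1 (Csa08g050560), at a log2 fold change of 1.27 ± 0.13 (SE), where 0.00176% of all genes were called higher. It took 12 members against the 35S::acdS line (0.0351% of all genes) and 3 against the rolD::acdS line (0.0141%). With the replicate number as a block, 31 members were called against the 35S::acdS line, and no share over all genes is given for that fit. The choice used these contrasts, so nothing is read from these counts.

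By their identifiers, 97 members lie on 19 chromosomes and 3 on unplaced scaffolds, with at most 12 members on a chromosome. Only 2 pairs of members are neighbours in the table. Csa08g023920 and Csa08g023930 had 5.45, 7.80 and 6.42 CPM and 17.0, 18.6 and 13.7 CPM with P. migulae 8R6, and in both the highest control was replicate 3, at 5.21 and 12.6 CPM. Csa17g030970 and Csa17g030980 had 7.35, 11.0 and 5.19 CPM and 4.63, 4.87 and 5.71 CPM with P. migulae 8R6, with no control above 4.58 and 3.52 CPM.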

How the data were processed

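RNA from whole shoots was sequenced in 12 libraries. Per the submitters' notes, the authors used Trimmomatic, STAR, DESeq and edgeR. The deposited table is named for CPM but holds whole-number counts that the authors did not scale by library total. Per the study's methods, STAR mapping used the published C. sativa genome and the transcript set of its NCBI release. CPM were computed from column sums. All columns matched a sample (0 did not). The 56932 genes that reached 0.5 CPM in 3 or more libraries were fitted with all 4 groups and no covariates by edgeR 4.0.16 (TMM, quasi-likelihood, Benjamini-Hochberg; R 4.3.3), with DESeq2 1.42.0 and limma 3.58.1 on log2(CPM + 0.5) as alternatives. The method was tested on simulated data.

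Members and lists were chosen with earlier results of these data known. Named genes were annotated members, the first 10 ranks, members called among the groups without bacteria, ranks 96 to 105, homeologues of annotated members and the photosynthesis, expansin, GASA and MYB-related lists. The 2 pairs of neighbouring members were named in addition. So were some unannotated members at 100 CPM or more, picked after their values were seen. Annotations, but not the authors' fold changes or p-values, came from the supplementary lists. No identifier matched the RefSeq table (0), so no sequence is shown.

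Same-numbered libraries of different groups were checked for shared deviations. All 3 pairs of P. migulae 8R6 and 35S::acdS libraries correlated above 0.1 (0.224, 0.196 and 0.222). The pairs of P. migulae 8R6 with the other groups ranged from -0.389 (DH55 control) to 0.318 (rolD::acdS). The labels give a replicate number only. The main fit has no covariates, and the fit with the replicate number as a block is an alternative to it.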

Additional observations from a re-analysis of the deposited data

How the results depend on the processing

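Of the 100 members, 97 stayed with TMM scaling, 88 and 81 with 0.1 and 2 CPM added, 82 with a minimum of 5 CPM and 83 without one. Leaving out 1 library kept 34 to 98, the fewest without P. migulae 8R6 replicate 1. The 970 separated genes became 999 to 2843, since each omission makes the condition easier to meet, and passed 1.5 times only without P. migulae 8R6 replicates 1, 2 or 3 or control replicate 2.

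The counts of members called in the contrasts with P. migulae 8R6 moved with the tool and filter. The choice used these contrasts, so nothing is read from these counts. Over all genes and in either direction, DESeq2 called 210 against the DH55 control, 998 against the 35S::acdS line and 474 against the rolD::acdS line. In the same contrasts limma called 4, 40 and 68 of all genes. The other alternatives are given without a share over all genes. Against the DH55 control, 1 became 4 without a count filter, 20 with DESeq2 and 0 with only the 6 libraries compared, and 0 to 4 when leaving out 1 library. It was 0 without P. migulae 8R6 replicate 1, 2 or 3, rolD::acdS replicate 3 or control replicate 1, with Csa08g050560 then at log2 fold changes of 1.21 to 1.31. Against the 35S::acdS line, 12 became 51, 67 and 0, and 0 to 55 when leaving out 1 library. Against the rolD::acdS line, 3 became 15 and 40 without a filter and with DESeq2, 6 with limma, and 0 to 16 when leaving out 1 library. With the replicate block these 3 counts were 2, 31 and 4. By the labels, same-numbered libraries of different groups share only a number (r from -0.389 to 0.318). The cause of these shifts was not tested. In the contrasts among the other groups, 0 members were called under all 18 alternatives of each, block included.

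Members at a few CPM rest on as few as 2 counts in a library of another group.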
